A study of Mus musculus with 4 samples.

Results

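The subject of this report is the loss of Bmp4, a secreted signal of the BMP family, from the mesenchyme of the lower (mandibular) molar of the mouse at embryonic day 13.5. It rests on 2 of the 4 RNA sequencing libraries of the study, chosen by their labels: 1 from the lower molar of Bmp4f/f;Wnt1Cre mutants and 1 from the lower molar of Bmp4f/+ controls. The other 2 libraries, of the upper (maxillary) molars of the same genotypes, are used here only for values set beside those of the lower molar. Of 22072 gene symbols listed, 10380 were compared in the lower molar: those that averaged 1 FPKM or more across both libraries, had a longest transcript of 300 bases or more and had no failed estimate. FPKM is a level per gene in which fragments are scaled to transcript length and to the number of mapped reads.

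In the mutant both Bmp4 alleles are floxed and a Wnt1-driven Cre recombinase, active in neural crest cells, removes them in the cells that later form tooth mesenchyme. Oral epithelium is not of crest origin and is not a target of that driver. The control had 1 floxed and 1 unmodified allele, and no Cre transgene stands in its label, so the effects of Cre and of Bmp4 loss cannot be told apart. All embryos were of mixed strain background. Tissue was cut from frozen sections with a laser, and according to the series description 3 control and mutant pairs were pooled. With 1 pooled library per genotype there is no replicate of the lower molar: every difference below compares 2 libraries, carries no p-value and no SD, and does not measure the spread between embryos.

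BMP ligands bind paired type I and type II receptor kinases, which phosphorylate Smad1, Smad5 and Smad9. These join Smad4, enter the nucleus and switch on targets such as the Id and Msx genes, while secreted antagonists hold the ligand away from its receptors. In the early molar, Bmp4 made by the mesenchyme under the tooth bud signals within the mesenchyme and back to the epithelium, and it supports the step from bud to cap. Mice that lack Bmp4 in the neural crest are known to arrest lower molars at the bud while upper molars go further, which is the background to comparing the jaws separately.

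Depth was alike in both lower molar libraries, with about 4.82e+06 reads on transcripts in the control and 5e+06 in the mutant, and 10444 and 10460 genes at 1 FPKM or more. At this depth 3 reads on a 2 kb transcript correspond to 0.115 and 0.106 FPKM. The labelled tissue was checked with 6 genes of tooth and crest mesenchyme, and all were abundant: Msx1 was at 126 and 98.4 FPKM in control and mutant, Prrx1 144 and 132, Pax9 84.9 and 108, Barx1 74.2 and 62.7, Lhx6 61.1 and 77.8, and Twist1 26.2 and 36.2. The female-expressed Xist lay at 0.0275 FPKM or below and the Y-linked gene Ddx3y between 5.02 and 5.62 FPKM in all 4.

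The targeted gene was examined first. Bmp4 (chromosome 14, 47003196 to 47010274, build mm9) had 27.2 FPKM in the control against 4.90 in the mutant lower molar, or about 707 against 137 reads. The mutant thus retained 17.99% of the control level, a difference of -2.26 on the log2(FPKM + 1) scale used for every difference here. The upper molar libraries stood at 24.8 FPKM in the control and 4.75 in the mutant, so both mutant libraries lay below both controls. The sources used here do not say which part of the gene Cre removes, so reads of a remaining part and of intact transcripts cannot be told apart. The gene overlaps a second gene model, Gm15217.

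Few genes differed as much as Bmp4. Of the 10380 genes, 29 (0.279%) were at least 2-fold higher and 42 (0.405%) at least 2-fold lower in the mutant, that is, they differed by 1 or more on the log2(FPKM + 1) scale. "2-fold" is meant on that scale throughout, and because 1 is added a low gene can differ more than 2-fold in FPKM without being counted. Rescaling the mutant by the median ratio of expressed genes turned this split to 41 higher and 36 lower, because the median gene was slightly lower in the mutant (-0.05, with 41.8% of genes higher as deposited and 52.9% after rescaling). The rescaling adds at most 0.08 to a difference, and less for low genes. Most genes lay close to the diagonal: 93.7% differed by less than 0.5, and the central 95% of differences ran from -0.55 to 0.53. Just inside the threshold were Sox6 (-1.0002) and Fgf14 (1.001), and just outside were Bmp3 (-0.996) and Csgalnact1 (0.99). Of the 29 higher genes 8, and of the 42 lower genes 8, rested on fewer than 100 approximate reads in each library. Some genes past 2-fold were under 1 FPKM in 1 library and were compared only because of the other, where they were high. Low in the mutant library were Amd1, Dlx3, Fap, Galnt5, Gja5, Grin3a, Meox1, Mical2, Mmp9, Msx2, Mylk, Nptx1, Rasl11a and Runx1. Low in the control library were Rspo2, B9d2, Msmp, Rangrf, Rpl26, Pisd-ps3 and 2610017I09Rik. Their part of these counts depends on the library that passed the filter.

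**Figure D1:**
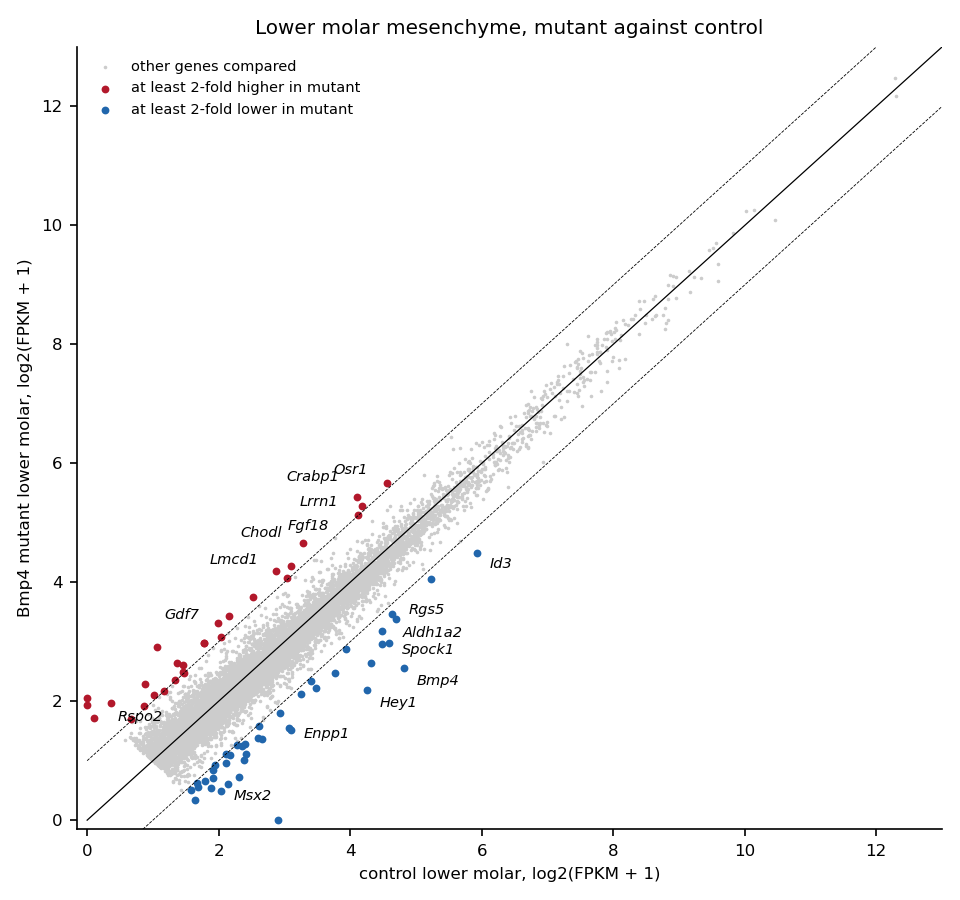
Each point is 1 gene, with log2(FPKM + 1) in the control lower molar on the horizontal axis and in the Bmp4 mutant lower molar on the vertical axis; the solid line is equality and the dashed lines are 2-fold. Red points are the 29 genes at least 2-fold higher and blue points the 42 at least 2-fold lower, and the labelled genes include Bmp4, far below the line at 27.2 against 4.90 FPKM.

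Genes known to respond to BMP signals were lower in the mutant almost without exception. In a list of such genes 13 of 14 genes compared were lower and 1 higher in the mutant, with a median difference of -0.45, against -0.05 over all genes compared. Of the 14, 5 were at least 2-fold lower, where 0.405% of all genes were, and 0 were at least 2-fold higher. Among these 5, Msx2 (3.10 and 0.399 FPKM) and Dlx3 (2.11 and 0.265 FPKM) passed the filter only through the control library. Both were compared because of the library in which they were high, so their part of that count is no separate result. The single gene in the other direction was Tbx2, a T-box repressor, at 5.80 FPKM in the control against 8.21 in the mutant. After rescaling Smad7 also stood above 0, which left 12 lower.

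Hey1, a transcriptional repressor that answers to Notch and to BMP signals (chromosome 3, 8663359 to 8667038), showed the largest difference of the list. It had 18.2 FPKM in the control against 3.53 in the mutant, which left 19.4%, and the difference was -2.08. In the upper molar the same gene kept 42.1% of its control level, with 23.0 and 9.68 FPKM. The homeobox gene Msx2 (chromosome 13, 53562250 to 53568149) was at 3.10 FPKM in the control against 0.399 in the mutant, about 87.4 against 12.1 reads, and at 3.77 FPKM in the control and 0.783 in the mutant upper molar. Its relative Msx1, which acts with Bmp4 in a mutual loop in the tooth bud, was at 126 and 98.4 FPKM, so 77.9% of the abundant Msx1 transcript remained where 12.9% of Msx2 did. Msx1 overlaps an antisense gene, and reads of the pair may not be separable.

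The Id genes, which encode proteins that block basic helix-loop-helix factors, were lower in the order Id3, Id1, Id2. Id3 (chromosome 4, 135699737 to 135701307) had 60.1 FPKM in the control against 21.4 in the mutant, a difference of -1.45, and 81.2 FPKM in the control and 42.2 in the mutant upper molar. Id1 had 5.10 FPKM in the control against 1.99 in the mutant and differed by -1.03. Id2 had 11.6 FPKM in the control against 7.44 in the mutant and differed by -0.58, within 2-fold. Id4 was at 1.09 and 0.666 FPKM and was too low to be compared. For Id1 the upper molar difference was -0.31, against -0.93 for Id3 and -0.52 for Id2. Among the Dlx homeobox genes Dlx3 was lowest, at 2.11 FPKM in the control against 0.265 in the mutant (about 71.8 and 9.71 reads). Dlx5 was at 39.2 and 28.9 FPKM and Dlx6 at 6.76 and 5.47 FPKM, both lower but within 2-fold.

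**Figure D2:**
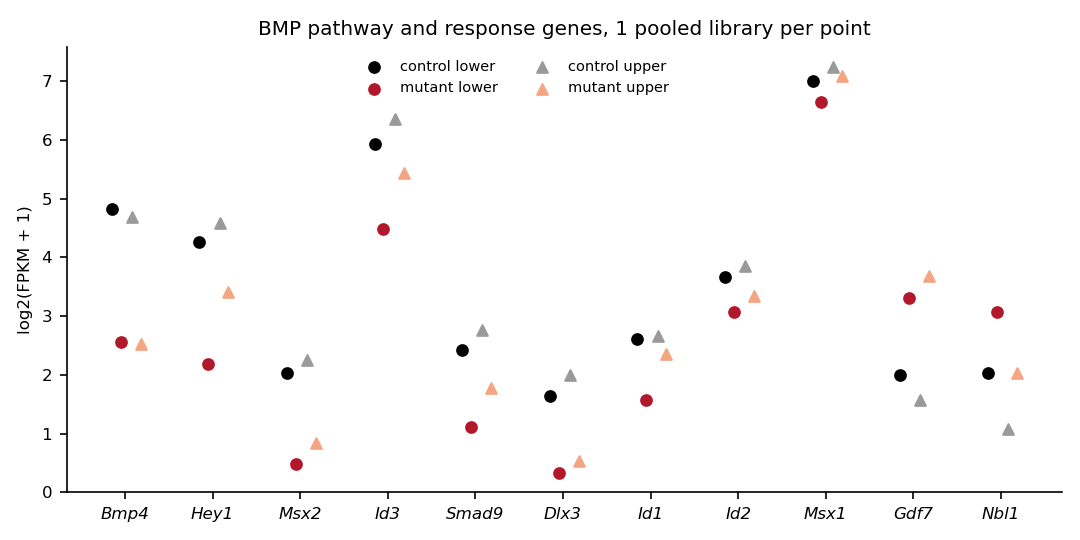
Levels of 11 BMP pathway and response genes as log2(FPKM + 1), with circles for the lower molar (black control, red mutant) and triangles for the upper molar (grey control, orange mutant), each symbol 1 pooled library. From Bmp4 to Msx1 the mutant symbol lies under its control in both jaws, while Gdf7 and Nbl1 lie above; the lower molar gap of Id1 (-1.03) is wider than its upper molar gap (-0.31).

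The stretches before the start sites of 3 lower genes and of 2 higher genes are printed to show the promoter proximal sequence of BMP pathway genes that differed in opposite directions. They are the 250 bases before the RefSeq start on GRCm38.p6, 5′ to 3′ on the gene's strand. Capitals mark GGCGCC or GGAGCC, GC-rich sequences to which Smad1 and Smad5 are known to bind, searched on both strands so that GGAGCC may read GGCTCC. Msx2 is chr13:53472781-53473030, minus strand, Id3 is chr4:136143572-136143821, plus strand, and Smad9, the gene of a BMP-specific Smad, is chr3:54755332-54755581, plus strand. Gdf7, a ligand gene, is chr12:8301955-8302204, minus strand, and Nbl1, an antagonist gene, is chr4:139092971-139093220, minus strand.
Msx2: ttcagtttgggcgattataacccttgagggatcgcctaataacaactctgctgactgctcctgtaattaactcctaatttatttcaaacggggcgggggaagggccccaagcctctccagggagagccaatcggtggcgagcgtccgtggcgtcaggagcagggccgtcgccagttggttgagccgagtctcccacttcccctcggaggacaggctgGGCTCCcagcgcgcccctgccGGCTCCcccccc
Id3: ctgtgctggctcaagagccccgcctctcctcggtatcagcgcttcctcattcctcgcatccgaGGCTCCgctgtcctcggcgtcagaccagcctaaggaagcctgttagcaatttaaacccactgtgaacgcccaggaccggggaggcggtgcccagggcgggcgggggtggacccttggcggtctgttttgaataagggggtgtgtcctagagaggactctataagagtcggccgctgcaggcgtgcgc
Smad9: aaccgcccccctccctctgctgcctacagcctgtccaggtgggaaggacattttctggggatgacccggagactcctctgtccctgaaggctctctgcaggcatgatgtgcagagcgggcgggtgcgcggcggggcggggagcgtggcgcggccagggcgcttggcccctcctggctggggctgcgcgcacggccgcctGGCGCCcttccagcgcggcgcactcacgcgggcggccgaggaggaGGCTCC
Gdf7: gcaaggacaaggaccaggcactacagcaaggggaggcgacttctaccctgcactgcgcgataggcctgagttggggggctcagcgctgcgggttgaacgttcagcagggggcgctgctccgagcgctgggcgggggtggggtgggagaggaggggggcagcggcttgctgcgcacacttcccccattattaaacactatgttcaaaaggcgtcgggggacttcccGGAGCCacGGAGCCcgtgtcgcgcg
Nbl1: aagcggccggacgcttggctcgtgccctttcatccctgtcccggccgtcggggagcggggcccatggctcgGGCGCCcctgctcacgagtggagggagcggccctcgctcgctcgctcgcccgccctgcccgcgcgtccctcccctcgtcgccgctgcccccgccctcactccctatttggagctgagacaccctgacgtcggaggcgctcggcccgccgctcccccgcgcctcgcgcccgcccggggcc
The letters GGCGCC occurred once each before Smad9 and Nbl1, and GGAGCC occurred before Msx2, Id3, Smad9 and Gdf7, so these matches were found on genes of both directions. Of the 10380 genes, 7446 had a sequence in the table, of which 21.1% held GGCGCC and 40.9% held GGAGCC. Of the 42 genes at least 2-fold lower, 24 had a sequence: 4 held GGCGCC and 12 held GGAGCC. Of the 29 higher, 22 had one, and 6 and 4 held them. A match describes the letters only and is not a binding site.

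Other ligands of the family differed in both directions. Among 8 BMP and GDF ligand genes compared, 5 were lower and 3 higher in the mutant, Bmp4 itself included. Gdf7 (chromosome 12, 8304724 to 8308760), a ligand studied in neural and tendon tissue, was 3.01-fold the control level, at 2.98 FPKM in the control against 8.95 in the mutant. Its upper molar libraries stood at 1.98 FPKM in the control and 11.9 in the mutant. Bmp3, a ligand that opposes other BMPs, was at 3.93 FPKM in the control against 1.47 in the mutant. Bmp2 was at 1.30 and 2.41 FPKM, and Bmp6 at 10.5 and 7.84 FPKM. Bmp7 was at 1.15 and 1.42 FPKM, so none of these reached the 27.2 FPKM that Bmp4 has in the control.

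Of 15 extracellular antagonists and modulators, 8 were higher and 7 lower. Nbl1, which binds and blocks BMP ligands, was 2.40-fold the control level at 3.10 FPKM in the control against 7.44 in the mutant. Sostdc1, an abundant antagonist of BMP and Wnt signals, was lower, at 122 FPKM in the control against 63.8 in the mutant. Chrdl1 was at 1.72 and 0.981 FPKM and Bmper at 12.6 and 9.34 FPKM, both lower within 2-fold. The antagonist gene Nog was too low to be compared, at 0.655 FPKM in the control and 0.0425 in the mutant, about 16.4 against 1.15 reads. Its upper molar levels were 0.987 and 0.0404 FPKM. The antagonists compared thus differed in opposite directions.

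Receptors and most Smads stayed within 2-fold. Smad9 (chromosome 3, 54559504 to 54605179) was the exception among 15 genes, with 4.35 FPKM in the control against 1.15 in the mutant, a difference of -1.31, and 5.80 FPKM in the control and 2.42 in the mutant upper molar. The related Smad1 was at 12.6 and 12.5 FPKM and Smad5 at 16.2 and 14.1 FPKM. The type II receptor gene Bmpr2 was at 28.1 and 19.2 FPKM and the type I receptor gene Bmpr1a at 18.04 and 15.9 FPKM. The feedback inhibitors Smad6 (-0.35) and Bambi (-0.47) were lower, Bambi at under 2 FPKM.

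Beyond the BMP pathway, the 42 lower genes included several of the extracellular matrix and its turnover. Spock1 (chromosome 13, 57522556 to 58009693), a secreted proteoglycan of the testican family, had 23.1 FPKM in the control against 6.87 in the mutant, 29.7% of control, where the upper molar had 25.2 FPKM in the control and 8.37 in the mutant. Tnn (chromosome 1, 162015163 to 162083706), a tenascin, had 7.43 FPKM in the control against 1.93 in the mutant, and its upper molar levels were 8.62 and 6.18 FPKM. Cthrc1, a secreted collagen triple helix protein, had 10.2 FPKM in the control against 3.65 in the mutant. Prelp, a leucine-rich matrix protein, had 3.50 and 1.14 FPKM, the matrix protease gene Mmp9 3.40 and 0.529 FPKM, and the membrane protease gene Fap 2.69 and 0.456 FPKM. In the wider list of matrix glycoproteins and proteoglycans 27 of 50 were higher and 23 lower with a median of 0.04, and 4 were at least 2-fold lower, where 0.405% of all genes were. Higher members included elastin, Eln (9.91 and 19.7 FPKM), the hyaluronan synthase Has2 (10.7 and 19.6 FPKM), and Dcn (49.8 and 75.7 FPKM), each within 2-fold. Of 24 collagen genes, 15 were higher and none differed 2-fold.

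Secreted regulators of growth factors formed another part of the lower genes. Igfbp7 was at 12.7 FPKM in the control against 4.58 in the mutant and Igfbp5 at 14.2 FPKM in the control against 6.34 in the mutant, both binding proteins for insulin-like growth factors. Igfbp3, another binding protein, was at 33.5 and 17.6 FPKM, a difference of -0.89. In the upper molar these 3 genes differed by -0.18, -0.09 and -0.06. Igf1 itself was higher in the mutant lower molar, at 5.57 and 9.65 FPKM, and the abundant Igf2 was at 362 and 360.2 FPKM. Figf, the lymphatic growth factor VEGF-D, was at 5.31 FPKM in the control against 1.57 in the mutant. Igfbp7 overlaps Polr2b, and reads on the shared stretch may not be separable.

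Enzymes and transcription factors were among the rest. Aldh1a2 (chromosome 9, 71063596 to 71144050), which makes retinoic acid, was at 21.4 FPKM in the control against 6.82 in the mutant, 31.8% of control. Enpp1 (chromosome 10, 24361217 to 24431908), which produces the mineralisation inhibitor pyrophosphate, was at 7.60 FPKM in the control against 1.87 in the mutant. Cyp1b1, a cytochrome P450 enzyme, was at 23.7 FPKM in the control against 10.1 in the mutant. Fxyd7, a regulator of the sodium pump, was at 18.9 FPKM in the control against 5.26 in the mutant, and the actin-oxidising enzyme gene Mical2 was at 3.96 FPKM in the control against 0.653 in the mutant. Crym, a thyroid hormone binding protein, was at 4.23 and 1.01 FPKM. Among transcription factors, Sox9 (5.04 and 1.602 FPKM) and Sox6 (3.33 and 1.16 FPKM), which drive cartilage formation together, Runx1 (3.30 and 0.942 FPKM) and Meox1 (2.86 and 0.899 FPKM) were all at least 2-fold lower, Sox6 at the threshold itself. Rgs5, a G protein regulator of pericytes, was at 25.05 FPKM in the control against 9.48 in the mutant, and of 7 genes compared in the list of pericyte and smooth muscle markers 4 were lower and 3 higher, with a median of -0.04 (4 higher and 3 lower after rescaling). Kcnj8, at 1.29 and 0.196 FPKM, and Abcc9, at 1.09 and 0.484 FPKM, were too low to be compared. Anpep was at 4.67 and 6.11 FPKM, Pdgfrb at 15.6 and 16.1 FPKM, and Cspg4 at 2.55 and 2.45 FPKM. In such bulk tissue fewer cells of a type and less RNA per cell cannot be told apart.

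The remaining lower genes were the neural genes Cntn1, Nptx1, Grin3a and Gpm6b, the ubiquitin ligase gene Trim2, the gap junction gene Gja5, the transporter gene Slco3a1, Rasl11a, Galnt5, Cyp39a1, the myosin kinase gene Mylk, Hes1, Dlx1as, Rpl30 and Amd1. Their differences ran from -2.89 for Amd1 to -1.01 for Cyp39a1. Several of these rest on uncertain assignment of reads. Amd1 was at 6.46 FPKM in the control against 0.00372 in the mutant, while the overlapping and near-identical Amd2 was higher in the mutant (1.10 and 6.52 FPKM). Their sum was 7.56 FPKM in the control against 6.53 in the mutant. Rpl30, Trim2 and Grin3a each overlap a further gene model, and Dlx1as (21.3 and 8.02 FPKM) overlaps Dlx1 (19.3 and 18.9 FPKM).

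Among the 29 higher genes, Osr1 and Tbx18 encode transcription factors, and Fgf18, Rspo2 and Gdf7 secreted signals. Osr1 (chromosome 12, 9581248 to 9588306), a zinc finger factor of embryonic mesenchyme, was 2.21-fold the control level, at 22.6 FPKM in the control against 50.1 in the mutant, with 6.81 FPKM in the control and 20.9 in the mutant upper molar. Its paralog Osr2, which restrains tooth formation on the tongue side of the molar row, was at 45.2 and 85.8 FPKM, a difference of 0.91, within 2-fold. The T-box gene Tbx18 was at 1.75 and 4.61 FPKM, and Tbx15 at 7.96 and 16.1 FPKM, a difference of 0.93, within 2-fold. Fgf18 (chromosome 11, 33017431 to 33047400), a fibroblast growth factor, was at 16.4 FPKM in the control against 34.0 in the mutant. Rspo2 (chromosome 15, 42852341 to 43002364), a secreted enhancer of Wnt signals, was at 0.289 FPKM in the control against 2.94 in the mutant, about 12.6 against 138 reads. In the upper molar Rspo2 was under 1 FPKM in both libraries (0.209 and 0.455 FPKM). Crabp1 (chromosome 9, 54612615 to 54620916), which binds retinoic acid in the cytoplasm, was 2.58-fold the control level, at 16.3 FPKM in the control against 42.1 in the mutant, with 14.1 FPKM in the control and 16.4 in the mutant upper molar.

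Other higher genes encode proteins of varied kinds, some of the cell surface. Lrrn1 (chromosome 6, 107479720 to 107520222), a leucine-rich repeat membrane protein, was at 17.1 FPKM in the control against 38.1 in the mutant, and its upper molar levels were 1.99 and 4.30 FPKM. Chodl (chromosome 16, 78931193 to 78951973), a membrane lectin, was at 8.68 FPKM in the control against 24.2 in the mutant, with 3.84 FPKM in the control and 7.95 in the mutant upper molar. Cntn6, a neural adhesion molecule, was at 2.43 FPKM in the control against 6.90 in the mutant. The related Cntn4 was at 5.13 and 11.1 FPKM and Ncam2 at 2.56 and 5.81 FPKM, both just within 2-fold, while Cntn1 went the other way (4.29 and 1.44 FPKM). Nefl, a neurofilament subunit, was at 1.52 and 4.15 FPKM, Htr1b, a serotonin receptor, at 3.45 and 9.74 FPKM, and Vstm2a at 1.01 and 3.29 FPKM. The peptide processing enzyme gene Cpe was at 7.53 FPKM in the control against 18.3 in the mutant, and Ddah1, an enzyme that degrades methylated arginine, at 7.25 FPKM in the control against 15.9 in the mutant. C1qtnf7 was at 4.75 and 12.5 FPKM and Lmcd1, a LIM domain cofactor, at 6.36 and 17.3 FPKM.

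The other higher genes were Fgf14, Tmem106c, the secreted Msmp, the cilium gene B9d2, Amd2, Rpl26, Rangrf, Pisd-ps3 and the provisional symbols Gm11968, AW551984, 1110065P20Rik and 2610017I09Rik. Rangrf and Rpl26 were under 0.1 FPKM in the control lower molar and at 3.17 and 2.84 FPKM in the mutant. In the upper molar control they had 2.45 and 5.54 FPKM. Both overlap other gene models, as do Msmp, Gm11968 and 1110065P20Rik, and no fold is given for them. Pisd-ps3, a pseudogene that overlaps a near-identical copy, was at 0.0783 and 2.30 FPKM.

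Pathways beside BMP were then read as lists. For comparison, 58.2% of all genes compared were lower, 0.405% at least 2-fold lower and 0.279% at least 2-fold higher. For the hedgehog pathway 9 of 13 genes compared were lower and 4 higher in the mutant, with a median difference of -0.20. Ptch1, the receptor and a target of the pathway, was at 49.7 FPKM in the control against 24.8 in the mutant, and Gli1, its transcription factor and target, at 22.9 FPKM in the control against 11.6 in the mutant, both just within 2-fold. Gli2 and Gli3, whose transcripts depend less on the signal, were at 9.91 and 7.81 FPKM and at 22.4 and 23.3 FPKM. In the Notch pathway 6 of 9 genes compared were lower and 3 higher in the mutant, with a median difference of -0.13. Beside Hey1, the Notch target Hes1 was at least 2-fold lower at 6.64 FPKM in the control against 2.50 in the mutant, and the ligand gene Jag1 was at 13.8 and 7.48 FPKM. The upper molar difference of Hes1 was -0.11. Receptors Notch1 (-0.13) and Notch3 (-0.44) were within 2-fold.

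Wnt genes were read by class. Among secreted Wnt antagonists 5 of 8 were higher: Dkk2 was at 10.2 FPKM in the control against 19.7 in the mutant and Sfrp2 at 157 FPKM in the control against 256 in the mutant. Dkk3 went the other way, at 21.2 and 11.3 FPKM, with Sostdc1. Of Wnt ligands, receptors and R-spondins 13 of 23 were higher, and Rspo2 was the only one past 2-fold. Rspo1 was at 4.55 and 7.23 FPKM and the receptor gene Ror1 at 3.33 and 5.66 FPKM. Of 14 Wnt/beta-catenin targets 9 were lower (7 after rescaling), among them Bmp4 itself, the 1 past 2-fold, Lgr6 (2.33 and 0.865 FPKM), Tcf7 (9.31 and 4.82 FPKM) and Lef1 (43.7 and 29.1 FPKM). Axin2, a common readout of the pathway, was at 18.996 and 19.2 FPKM.

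Of 24 FGF ligands and receptors listed 9 were compared, and 2 were at least 2-fold higher, where 0.279% of all genes were. These were Fgf18 and, at the threshold itself, Fgf14, an intracellular relative of the family (1.26 and 3.52 FPKM). Fgf7 was lower (1.89 and 0.710 FPKM) and Fgf10 was at 2.01 and 2.38 FPKM. Among genes that answer FGF/ERK signals, Dusp6 (0.66) and Spry1 (0.44) were higher and Etv4 (-0.80) lower, with a list median of 0.02 in the lower and 0.41 in the upper molar. In the retinoic acid pathway 6 of 11 genes compared were lower and 5 higher in the mutant, with a median difference of -0.08. Over all genes 58.2% were lower. In each direction 1 gene was past 2-fold, where 0.405% of all genes were lower and 0.279% higher by that much. Aldh1a2 was lower, while Crabp1 and Crabp2 (12.6 and 25.8 FPKM) were higher. The receptor gene Rarb, itself a target of retinoic acid, was at 2.16 and 1.45 FPKM.

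In the list of early molar transcription factors 15 of 25 genes compared were lower and 10 higher, beside 58.2% of all genes lower. Osr1 was the only member past 2-fold, where 0.279% of all genes were at least 2-fold higher and 0.405% lower. The homeobox genes Msx2 and Dlx3, at least 2-fold lower, were read in other lists and are not counted here. Prrx2, a homeobox factor of mesenchyme, was at 20.5 FPKM in the control against 10.7 in the mutant, a difference of -0.87, where the upper molar showed -0.13. Dlx2 (18.7 and 11.7 FPKM) and Runx2 (48.2 and 31.0 FPKM) were lower within 2-fold. Pax9 (0.35), Pitx1 (0.44) and Lhx6 (0.34) were higher within 2-fold, so the factors of this list did not all differ in 1 direction. Of 10 osteoblast lineage genes 7 were lower with a median of -0.43. The osteoblast factor Sp7 was at 7.04 and 4.25 FPKM, a difference of -0.61 against -1.76 in the upper molar. Of 6 cartilage genes compared 5 were lower, Sox9 and Sox6 by 2-fold or more, where 0.405% of all genes were. The cartilage collagen gene Col2a1 was at 5.96 and 6.23 FPKM.

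**Figure D3:**
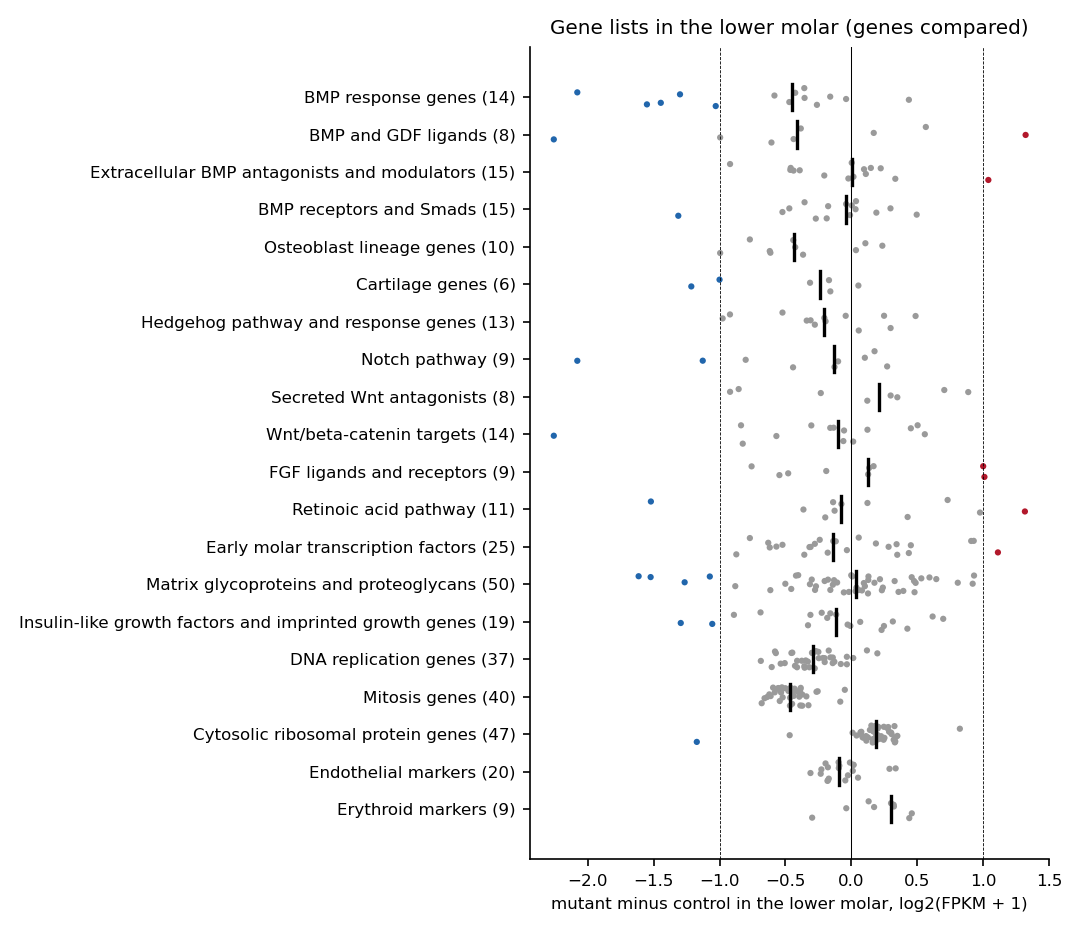
Differences (mutant minus control, lower molar, log2(FPKM + 1)) of the compared members of 20 gene lists, 1 point per gene, with the number of genes in brackets, the median as a black bar, and dashed lines at 2-fold. BMP response, osteoblast and mitosis genes have medians of -0.45, -0.43 and -0.46, and ribosomal protein genes a median of 0.18, on the other side of 0.

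Most of the cell division genes compared were lower in the mutant lower molar, each within 2-fold. Over all genes compared, 58.2% were lower. All 40 mitosis genes compared were lower (39 after rescaling), with differences from -0.68 to -0.05 and a median of -0.46. None of the 40 differed 2-fold. Mki67, a marker of cycling cells, was at 64.0 FPKM in the control against 41.2 in the mutant. Cenpe, a kinetochore motor, was at 13.2 and 7.87 FPKM, the mitotic kinase gene Aurkb at 24.5 and 15.2 FPKM, and Top2a, which untangles DNA, at 65.8 and 45.4 FPKM. Of 37 DNA replication genes 34 were lower (32 after rescaling) with a median of -0.29. The ribonucleotide reductase subunit gene Rrm2 was at 16.5 and 9.85 FPKM, the licensing factor gene Cdt1 at 8.41 and 5.49 FPKM, and the thymidylate synthase gene Tyms at 15.2 and 9.84 FPKM.

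In the upper molar the same lists had medians of -0.17 for mitosis, with 38 of 40 genes lower, and 0.03 for replication, with 15 of 37 lower. Rrm2, Cdt1 and Tyms differed there by -0.16, 0.37 and 0.11. With 1 library per group the difference between the jaws was not tested. Genes of a list were read in the same libraries, so 40 genes in 1 direction are not 40 separate observations.

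Regulators of the cycle were mixed. Of 26 compared 21 were lower (18 after rescaling) and none differed 2-fold. Mycl1 (5.12 and 2.08 FPKM) and Mycn (5.93 and 3.20 FPKM), growth promoting Myc factors, were lower, and Myc itself was at 9.92 and 9.51 FPKM. Cdkn1c, an inhibitor of cyclin-dependent kinases, was higher at 71.9 and 89.7 FPKM, while Cdkn2c was lower at 4.59 and 2.48 FPKM. The cyclin genes Ccnd1 (-0.06) and Ccnd2 (-0.30) differed little. Cytosolic ribosomal protein genes went the other way: 45 of the 47 listed were higher with a median of 0.18. In the upper molar 46 of the 47 were higher with a median of 0.21. Rpl26, named above, is not in that list. Rps18 was at 263 and 332 FPKM and Rplp0 at 216 and 272 FPKM. The lower exceptions were Rpl30, named above, and Rps23 (32.5 and 23.2 FPKM).

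**Figure D4:**
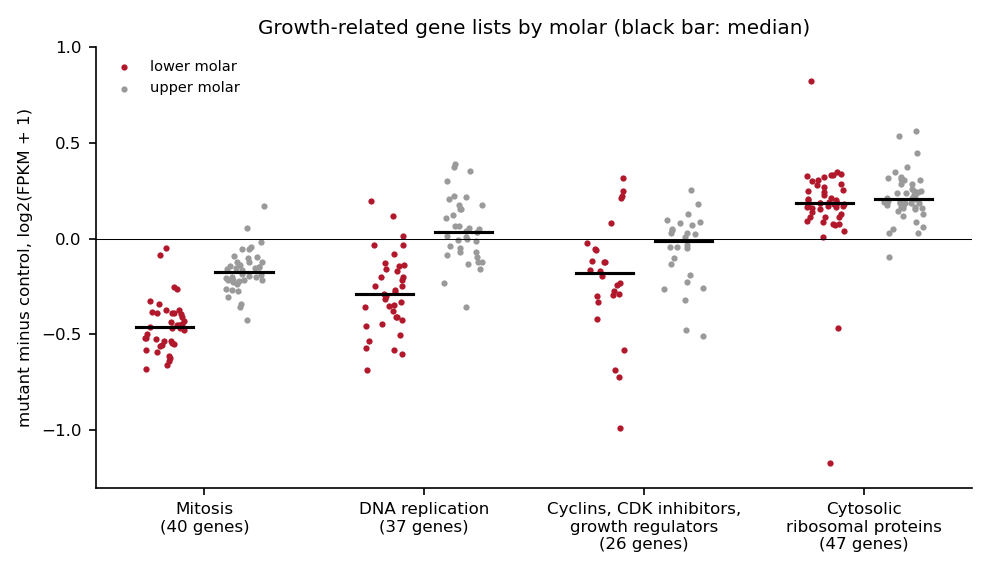
Differences (mutant minus control, log2(FPKM + 1)) of growth-related genes in the lower molar (red) and upper molar (grey), 1 point per gene, with medians as black bars. Mitosis genes have medians of -0.46 and -0.17, replication genes -0.29 and 0.03, and ribosomal protein genes 0.18 and 0.21 in the lower and upper molar.

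Markers of other cell types that a laser capture could include were then summed. Endothelial genes summed to 87.4 FPKM in the control against 80.5 in the mutant lower molar over 21 genes, and 14 of 20 compared lower (11 after rescaling). Pericyte and smooth muscle genes summed to 67.5 and 48.3 FPKM over 15 genes, a gap made mostly by Rgs5. Epithelial genes summed to 28.3 and 29.8 FPKM over 23 genes, with Krt14 at 3.91 and 3.81 FPKM and Epcam at 0.608 and 0.781 FPKM. Erythroid genes were higher in the mutant, 923 against 1096 FPKM over 14 genes, with the embryonic globin gene Hbb-y at 466 and 574 FPKM. Macrophage and blood genes summed to 18.8 and 19.6 FPKM over 15 genes.

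Neuron, glia and muscle markers bear on the neural genes named above. Of 18 neuron markers 3 were compared, and the sums were 13.8 and 15.7 FPKM. The 3 were Nefl, higher (1.52 and 4.15 FPKM), Uchl1, lower (2.75 and 1.74 FPKM), and Gap43 (6.72 and 6.46 FPKM). Pou4f1 and Prph were listed at 0 in both lower molar libraries. Tubb3 was at 0.817 and 0.399 FPKM. Glia markers summed to 28.2 and 23.8 FPKM over 12 genes, nearly all from Pmp22 and Ngfr, with Sox10 at 0.436 and 0.163 FPKM. Muscle markers summed to 7.56 and 7.02 FPKM over 22 genes, with Myod1 at 0 and 0.0438 FPKM. The part of any of these cells in the differences was not tested.

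Finally, genes chosen by their difference in the lower molar were read in the upper molar, whose 2 libraries had no part in choosing them. There 28 of 10376 genes compared were at least 2-fold higher (0.27%) and 29 at least 2-fold lower (0.279%). Over all 10380 genes compared in the lower molar, the median upper molar difference was 0.02. The share of all genes with the same sign in both jaws was not computed. Of the 42 genes lower in the lower molar, the targeted Bmp4 included, 41 had a negative difference in the upper molar too (the exception was Enpp1). Their median was -0.64 there, against -1.24 in the lower molar. Of the 29 higher genes, 27 had a positive difference (the exceptions were Amd2 and B9d2), with medians of 0.78 and 1.20. A smaller value is the usual result for genes picked as extreme in the other jaw. Those past 2-fold in both jaws were 10 lower genes, 23.8% of the lower molar list and 34.5% of the upper molar list: Bmp4, Hey1, Msx2, Dlx3, Spock1, Cthrc1, Mical2, Rgs5, Sox9 and Meox1. Among these 10, Msx2, Dlx3, Mical2 and Meox1 were under 1 FPKM in the mutant lower molar. The 6 higher genes past 2-fold in both were Gdf7, Osr1, Fgf18, Lmcd1, C1qtnf7 and Nefl, 20.7% and 21.4% of the lists. The upper molar lists include genes not compared in the lower molar: 22 of the 29 lower and 24 of the 28 higher genes were compared there. The labels do not say whether both jaws came from the same embryos.

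Other genes differed 2-fold in the lower molar with nearly equal upper molar libraries. Of the 42 lower genes, 13 differed by less than 0.25 in the upper molar, and of the 29 higher genes, 3 did. The share of all genes compared that differed by less than 0.25 there was not computed, so these counts do not set such genes apart. Among the 71 genes Enpp1 had the widest gap between jaws apart from the Amd pair, at -1.58 in the lower and 0.17 in the upper molar, where it had 13.8 and 15.6 FPKM. Fxyd7 was at -1.67 and -0.07, with 18.9 and 17.95 FPKM in the upper molar. Figf was at -1.297 and -0.06, Cyp1b1 at -1.16 and -0.03, and Fap at -1.34 and -0.07. Aldh1a2, at -1.52 and -0.36, had 43.4 and 33.6 FPKM in the upper molar, more than in either lower molar library. Crabp1 was at 1.32 and 0.20. Nefl had the opposite imbalance, at 1.03 and 2.27. The 4 libraries leave no residual for a test of the difference between jaws, so none of these genes is shown to respond in the lower molar alone.

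**Figure D5:**
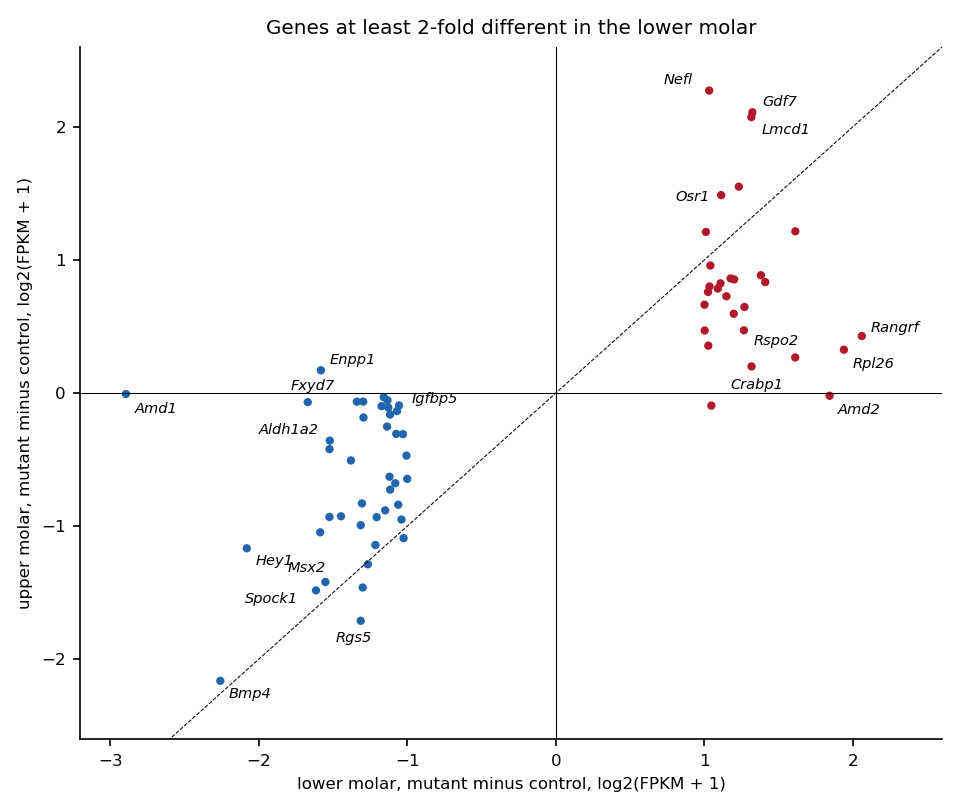
The 71 genes at least 2-fold different in the lower molar, with the lower molar difference on the horizontal and the upper molar difference on the vertical axis (mutant minus control, log2(FPKM + 1)); the dashed line is equality. Blue genes are lower and red genes higher in the lower molar; Bmp4 lies near the line, while Enpp1, Fxyd7 and Igfbp5 lie near 0 in the upper molar.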

How the data were processed

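Gene expression was measured by RNA sequencing of laser-captured molar mesenchyme, amplified with a NuGEN assay and made into Nextera libraries, per the labels' protocols. The submitters' processing notes name TopHat 1.4.1, Bowtie 0.12.7 and the mm9 build. For Cufflinks version, strand and multiply aligned reads, the settings are not given in the sources used here, and overlapping or near-identical genes may share reads. The authors deposited FPKM for 28107 RefSeq transcripts. Deposited coverage signal times length, divided by 44.2 bases (the median of single-read genes), gave approximate reads, which cover counting error only since cDNA was amplified.

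FPKM was summed per gene symbol with pandas 2.3.3 in Python 3.11.15, and differences are of log2(FPKM + 1), which understates changes of low genes. Genes left out of the comparison were 96 with a longest transcript under 300 bases and 15 with a failed estimate. No test was run, since the lower molar has 1 library per genotype. Calculations were checked on simulated data. Coordinates are the deposited loci, counted from 1. Older symbols were matched through synonyms of RefSeq genes on GRCm38.p6.

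Genes and the 40 lists were chosen with earlier results of these data known. Named genes are Bmp4, the 15 highest and 15 lowest differences among genes that average 2 FPKM or more and carry an established symbol, up to 4 members per list with the largest difference, members needed for their role, and 6 genes with the widest gap to the upper molar. The other genes past 2-fold and further pathway members and markers shown for comparison were chosen after their values were seen. The 8 alternatives tried are given with their effect at the end.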

Additional observations from a re-analysis of the deposited data

Results flagged for a closer look

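Among the genes named, 2 differed by at least 0.5 in opposite directions in the jaws, which drew attention to them; the difference between jaws was not tested. Myl4, a myosin light chain gene of muscle, had a difference of -0.78 in the lower and 1.04 in the upper molar, with 1.88 and 0.673 FPKM in the control and mutant lower molar. Scx, a transcription factor of tendon, had -0.62 and 0.67, with 1.64 and 0.722 FPKM. Both were under 2 FPKM in the lower molar and rested on few reads there, about 21.6 against 8.37 for Myl4 and 24.3 against 11.6 for Scx. Scx overlaps Bop1, and reads on the shared stretch may not be separable.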

How the results depend on the processing

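Counts of genes past 2-fold moved with the processing. From 29 higher and 42 lower genes, a pseudocount of 0.1 gave 93 and 97, a mean of at least 5 FPKM gave 12 and 15, keeping short transcripts gave 58 and 74, and using the most abundant transcript of a gene alone gave 96 and 105. A pseudocount of 0.5 gave 49 higher and 63 lower genes. The causes were not tested beyond the construction of each setting. Bmp4 stood at -2.36 and -2.45 with pseudocounts of 0.5 and 0.1. The share of 2-fold genes with the same sign in the upper molar was 95.8%, against 86.6% and 82.1% with those pseudocounts, 100% at a mean of 5 FPKM, 65.2% with short transcripts and 72.7% with single transcripts.

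Of the 30 leading genes, 30 stayed past 2-fold under 7 of the alternatives and 19 at a mean of 5 FPKM, where the others were not compared. Lists with a median of at least 0.2 numbered 3, and 1 without a filter on low values. Sign changes were counted only for lists whose main median was at least 0.1 in size. Without that filter the medians of secreted Wnt antagonists (-0.0044), Notch genes (0.00025) and muscle markers (0.0013) changed sign. FGF ligands and receptors did so at a mean of 5 FPKM (-0.18) and with single transcripts (-0.17). Some smaller medians crossed 0 too, such as that of retinoic acid genes, from -0.08 to 0.12 with single transcripts. The Notch median was -0.62 at a mean of 5 FPKM, and the chemokine median went from 0.42 to 0 without the filter. No paired analysis was possible because each jaw has 1 library per genotype and the labels carry no replicate numbers; a fit with jaw as a block would test both jaws together, not the lower molar. Genes under about 2 FPKM rest on few reads, and differences there are the least certain.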

Other observations

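Further lists of the lower molar, chosen for breadth, showed small or mixed differences. Of 44 axon guidance genes compared, 26 were lower (21 after rescaling) and none differed 2-fold. Unc5b, a netrin receptor gene, was at 4.05 FPKM in the control against 1.61 in the mutant, and Sema6c, a semaphorin gene, at 1.78 and 3.78 FPKM. All 4 chemokine genes compared were higher, with Cxcl14, at 4.81 and 9.13 FPKM, differing by 0.80 in the lower and -0.09 in the upper molar. Of 22 sterol synthesis genes 14 were lower (9 after rescaling), with a median of -0.07 close to that of all genes. Of 24 glycolysis and hypoxia genes 15 were higher, with a median of 0.07. P4ha1 (3.30 and 5.49 FPKM) and P4ha2 (5.88 and 3.47 FPKM), subunits of collagen prolyl hydroxylase, differed in opposite directions.

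The remaining lists were read in the same way, beside 58.2% of all genes lower, 0.405% at least 2-fold lower and 0.279% at least 2-fold higher. Of 20 genes of TGF-beta and activin signalling 11 were higher with a median of 0.06, and none differed 2-fold. Inhba, an activin subunit gene of tooth mesenchyme, was at 71.3 and 55.8 FPKM, and Skil, an inhibitor of Smad signals, at 7.002 and 3.95 FPKM. Of 23 matrix protease and inhibitor genes 15 were higher, and Mmp9 was the 1 gene past 2-fold. Of 31 adhesion genes 18 were higher, with Cntn6 and Cntn1 past 2-fold in opposite directions. Of 9 mandibular arch identity genes 5 were lower, with Dlx3 past 2-fold. Of 7 tendon and joint genes 6 were lower with a median of -0.41, while Chodl was higher. Of 15 immediate early and heat shock genes 10 were lower (8 after rescaling) with a median of -0.07. Of 19 growth factor and imprinted genes 12 were lower (10 after rescaling), and the imprinted gene Peg10 was at 40.2 and 24.5 FPKM.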
